A study of Drosophila melanogaster with 31 samples.

Results

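The regions described here are the H3K9me3 peaks at the centromere-proximal ends of 3 autosome arms of *Drosophila melanogaster* ovarian somatic cells. They were taken by position alone, on genome build dm3, as the peaks on 2L with a start at 21500000 or beyond, on 3L with a start at 22500000 or beyond, and on 3R with an end at 500000 or before. In cells depleted of Nxf2 (Nxf2-KD) 413 of 3497 listed peaks met this rule, and in cells depleted of Panx (Panx-KD) 455 of 4023 did. Arm 2R was not part of the set.

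Ovarian somatic cells (OSC) are a line kept in culture that stems from follicle cells, the somatic cells that wrap the fly egg chamber. They were grown at 26 degrees and transfected with small interfering RNAs against Nxf2 or Panx. Of the 31 samples of the series, 4 were H3K9me3 chromatin immunoprecipitations, 2 for each knockdown, and each knockdown had 1 input. The labels do not say whether the replicates came from separate cultures. The peaks were deposited as 1 merged list per knockdown, so no value below has a replicate spread and no p-value compares the knockdowns. A peak list of control-knockdown cells was not analysed here, so the 2 lists can be set beside each other but not beside unperturbed cells. The lists hold positions and a score for each peak but no read counts, so the depth behind each peak is unknown.

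Histone H3 trimethylated at lysine 9 is the mark of constitutive heterochromatin and is bound by HP1 proteins. In flies it fills the sequences around the centromeres, where the methyltransferase Su(var)3-9 is the main enzyme that lays it down and where transposon remnants and satellites are dense. Panx and Nxf2 act with Piwi, which is guided by small RNAs called piRNAs, in the silencing of transposon copies, and the mark added on that path is laid down by Eggless. The bases of the arms also carry genes that work inside heterochromatin, such as *light*, which encodes a vacuolar sorting protein, and *concertina*, which encodes a G protein subunit used in gastrulation, both on 2L. The tandem repeats of the histone genes lie near the base of 2L as well. The places of these genes on dm3 were not analysed here.

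The arm ends were densely marked in both knockdowns. Peaks covered 1143 kb (28.2%) of the 4053 kb between the limits and the most centromere-proximal peak ends in Nxf2-KD cells, and 1288 kb (31.8%) in Panx-KD cells. The rest of the same 3 arms, 71.0 Mb, was covered to 2.04% in Nxf2-KD cells and to 2.17% in Panx-KD cells. The separate heterochromatin sequences of dm3, 9.23 Mb up to their last peaks, were covered to 49.3% and 52.4%. The arm ends therefore lay between these classes in both lists, with 10.2 peaks per 100 kb in Nxf2-KD and 11.2 in Panx-KD cells, against 0.936 and 1.08 on the rest of the arms and 15.0 and 16.3 on the heterochromatin sequences. These contrasts describe positions along a genome within 1 list each, and they were not tested.

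The 3 arm ends differed in how much mark they held. On 3L, 253 Nxf2-KD peaks covered 768 kb, 37.6% of the region, and 275 Panx-KD peaks covered 871 kb, 42.6%. On 2L, 151 Nxf2-KD peaks covered 356 kb, 23.6%, and 168 Panx-KD peaks covered 393 kb, 26.0%. On 3R, 9 Nxf2-KD peaks covered 18.8 kb of 500 kb, 3.77%, and 12 Panx-KD peaks covered 24.0 kb, 4.81%. The order of the arms was the same in both lists, and on each arm the Panx-KD list held more peaks and more covered bases than the Nxf2-KD list. The whole Panx-KD list was also the larger, with 4023 peaks over 10168 kb against 3497 peaks over 9251 kb.

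Dense marking over many successive bins began further in than the limits of the rule. On 2L, the bin just outside the limit, 2L:21400001-21500000, was covered to 22.6% in Nxf2-KD and 34.4% in Panx-KD cells, more than the bins just inside. The first 300 kb inside the limit had 15.2%, 6.08% and 3.05% of successive 100 kb bins covered in Nxf2-KD cells and 18.2%, 6.78% and 4.68% in Panx-KD cells. A stretch of 462 kb, 2L:21725745-22187577, then held no peak in either list. From 2L:22200001 onwards each of the 8 full bins was covered to between 29.9% and 58.9% in Nxf2-KD cells and between 33.2% and 63.0% in Panx-KD cells. This inner zone, in which every full bin was at least 20% covered in both lists, a threshold chosen after the bins were seen, held 91.8% of the covered bases of the 2L end in Nxf2-KD cells and 91.1% in Panx-KD cells. The zone was defined on both lists together, so its single start is shared by construction. Read singly, each list also passed the 20% threshold at that start. For the Nxf2-KD list, coverage went from 4.99% of 2L:22100001-22200000 to 33.6% of the next bin. The Panx-KD list went from 6.81% to 35.7% over these bins.

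On 3L, the first 500 kb inside the limit were covered to 7.38% in Nxf2-KD cells and 7.72% in Panx-KD cells. Most of that lay in 3L:22800001-22900000, which was covered to 20.7% and 22.4%. The peak-free stretch 3L:22575655-22754337 (179 kb) lay further out, with peaks between it and that bin. Another, 3L:22898539-22985289 (86.8 kb), began near the inner end of that bin. From 3L:23000001 onwards, coverage of the 15 full bins ran from 24.9% to 72.7% for the Nxf2-KD list. The Panx-KD range was 23.8% to 80.2%. The zone from that start, with the shorter last bin included, held 95.2% and 95.6% of the covered bases of the 3L end. The most densely covered bin of all was 3L:23400001-23500000 in both lists, with 72.7% and 80.2%.

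On 3R the mark lay mostly in the 100 kb nearest the centromere, of which 16.6% was covered in Nxf2-KD cells and 20.8% in Panx-KD cells. A peak-free stretch of 225 kb followed, 3R:91761-316315. The remaining bins up to the limit had at most 1.19% coverage in Nxf2-KD cells and 2.14% in Panx-KD cells.

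**Figure D1:**
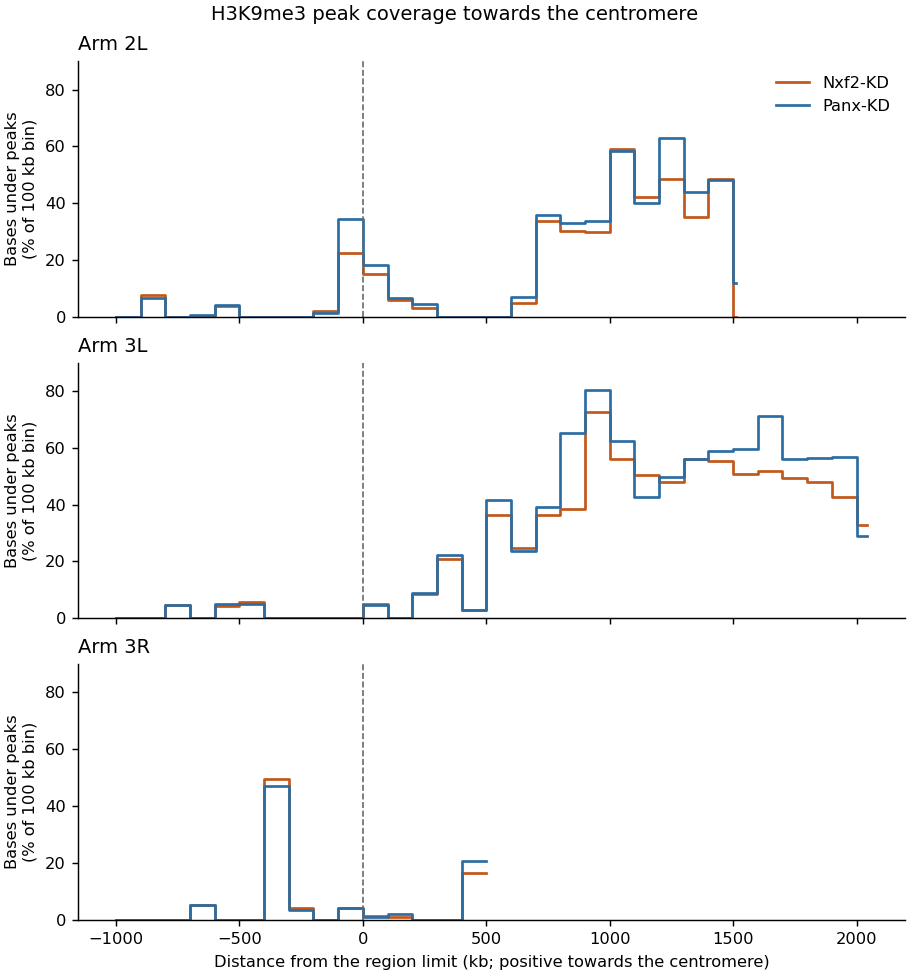
Share of each 100 kb bin covered by H3K9me3 peaks (y axis, %) against the distance from the limit of the rule (x axis, kb, positive towards the centromere) on arms 2L, 3L and 3R, with 1 line for each knockdown. On 2L coverage reaches 22.6% and 34.4% just outside the limit, drops to 0 inside it, and from 700 kb inside stays above 20% in every full bin of both lists, as it does on 3L from 500 kb inside. 3R reaches 16.6% and 20.8% in its last bin, and the last bins on 2L and 3L end at the most centromere-proximal peak.

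The limits cut through few marked stretches. On 3L the nearest peaks inside were 3L:22570794-22575654 in Nxf2-KD cells, with a score of 839.41, and 3L:22570789-22575483 in Panx-KD cells, with 862.77. The nearest outside lay more than 400 kb away, at 3L:22098129-22098694 (score 60.13) and 3L:22093092-22098057 (score 1120.15). On 3R the nearest peaks inside, 3R:417862-419050 and 3R:418050-419178, had scores of 57.33 and 75.73, and the nearest outside, 3R:579045-583231 and 3R:579041-583239, had 708.69 and 363.48.

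On 2L the limit fell near peaks that started at steps of about 5 kb, with interruptions. In Panx-KD cells, peaks outside the limit started at 21466227, 21471267, 21476306 and 21481418, which are steps of 5040, 5039 and 5112 bp, and then, after 14920 bp, at 21496338. The first members inside followed at 21501365 and 21506451, after further steps of 5027 and 5086 bp. In Nxf2-KD cells the starts outside were 21466337, 21471323, 21476328 and 21481394, in steps of 4986, 5005 and 5066 bp, and the members inside started at 21501344 and 21504447, after steps of 19950 and 3103 bp, so the Nxf2-KD peaks across the limit were not evenly spaced. The peaks outside given here are those nearest the limit, not all those of 2L:21400001-21500000. They had scores of 92.69 to 148.24 in Nxf2-KD and 151.33 to 356.44 in Panx-KD cells. The first members inside had 65.22 and 50.18 in Nxf2-KD and 62.93 and 65.99 in Panx-KD cells. The first Nxf2-KD member, 2L:21501344-21504265, touched a Panx-KD peak outside the limit by 15 bp and was covered to 46.6% in all.

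The same places were marked in both knockdowns, and more fully so when read from the shorter list. Of the Nxf2-KD members, 386 of 413 (93.5%) were overlapped by at least 1 bp of a Panx-KD peak, against 89.0% of all peaks of that list. Of the Panx-KD members, 371 of 455 (81.5%) were overlapped by an Nxf2-KD peak, against 76.7% of all peaks of that list. Both shares were a few percentage points above the background of the whole list. Members with at least 50% of their length under peaks of the other list were 377 (91.3%) in Nxf2-KD and 355 (78.0%) in Panx-KD cells, against 86.5% and 73.1% of all peaks. On the rest of the 3 arms the shares at 1 bp were 85.4% and 72.7%, and on the heterochromatin sequences 91.5% and 84.0%. The shares at 50% were 82.6% and 70.6% on the rest of the arms and 89.5% and 79.3% on the heterochromatin sequences.

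In bases, 1038 kb of the arm ends were covered in both lists, 90.8% of what the Nxf2-KD members covered and 80.6% of what the Panx-KD members covered. Over the whole lists these shares were 87.4% and 79.5%, and on the rest of the 3 arms 85.5% and 80.4%. The arm ends were thus near the background, most closely from the Panx-KD side. At the arm ends the shared bases made up 0.745 of those covered in either list (the Jaccard index). The index was 0.757 on 3L, 0.727 on 2L and 0.629 on 3R. Bases under Nxf2-KD members alone came to 105 kb and bases under Panx-KD members alone to 250 kb.

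Overlap followed the score. The score is the authors' own value for each peak, its scale is not stated in the sources used here, and the lowest in the set were 50.17 and 50.10. Among Nxf2-KD members with scores from 50 to 100, 114 of 137 (83.2%) were overlapped. Between 100 and 200 it was 102 of 105 (97.1%), between 200 and 500 it was 105 of 106 (99.1%), and at 500 and above it was 65 of 65. Among Panx-KD members the same classes gave 73 of 141 (51.8%), 96 of 108 (88.9%), 104 of 107 (97.2%) and 98 of 99 (99.0%). The members not found in the other list were thus mostly low-scoring ones: 23 of 27 in Nxf2-KD and 68 of 84 in Panx-KD cells scored under 100. The whole lists showed the same, with 75.7%, 96.0%, 97.5% and 98.2% of Nxf2-KD and 48.5%, 81.9%, 96.7% and 98.5% of Panx-KD peaks overlapped in these classes, and with 318 of 384 and 713 of 936 unmatched peaks under 100.

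Read at like scores, the shares at the arm ends and on the rest of the arms lay furthest apart in the lower classes. Peaks scoring 50 to 100 on the rest of 2L, 3L and 3R were overlapped in 68.5% of cases from the Nxf2-KD side and 44.6% from the Panx-KD side. On the heterochromatin sequences that class gave 81.8% and 59.2%. For scores of 100 to 200 the shares on the rest of the arms were 95.4% and 79.1%. For scores of 200 to 500 they were 100% and 98.0%, next to 99.1% and 97.2% at the arm ends. The arm ends also held fewer peaks of the lowest class, 33.2% of Nxf2-KD and 31.0% of Panx-KD members, against 42.0% and 38.8% on the rest of the arms. Peaks of the other list also covered more of the arm ends, 31.8% and 28.2%, than of the rest of the arms, 2.17% and 2.04%, and the part of that coverage in the overlap shares was not tested.

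**Figure D2:**
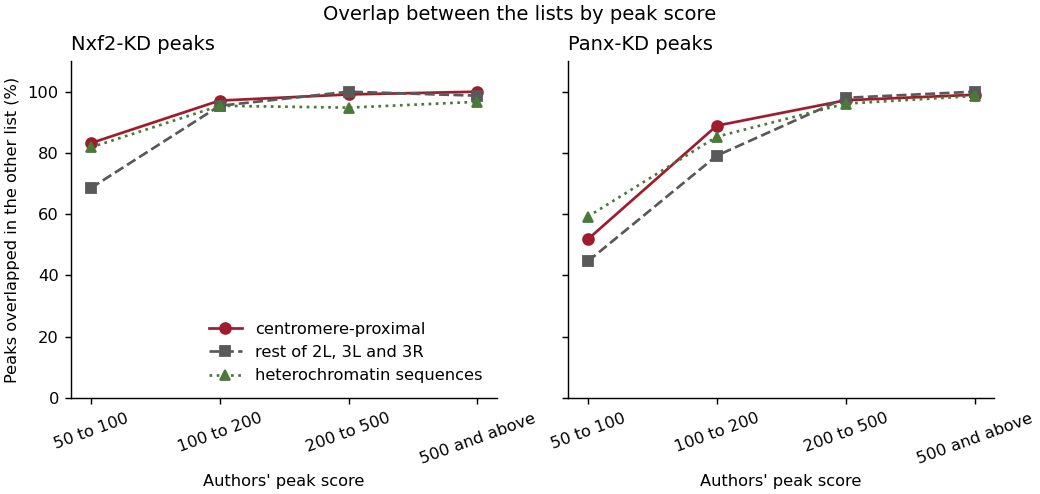
Share of peaks overlapped by at least 1 bp in the other list (y axis, %) by class of the authors' peak score (x axis), for the centromere-proximal peaks, the rest of the 3 arms and the heterochromatin sequences, with the Nxf2-KD list on the left and the Panx-KD list on the right. The shares run from 83.2% (Nxf2-KD) and 51.8% (Panx-KD) at scores of 50 to 100 to 100% and 99.0% at 500 and above in the centromere-proximal peaks.

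The members ranged from narrow islands to broad blocks. Widths ran from 535 to 25787 bp in Nxf2-KD cells, with a median of 1900 bp and quartiles of 1271 and 3319 bp. In Panx-KD cells they ran from 502 to 25328 bp, with a median of 1599 bp and quartiles of 1110 and 3440 bp. Peaks of at least 5 kb were few but carried much of the coverage, with 53 Nxf2-KD members (12.8%) holding 37.1% of the covered bases and 70 Panx-KD members (15.4%) holding 46.0%. Over the whole lists the values were 12.7% holding 37.2% in Nxf2-KD and 12.8% holding 40.2% in Panx-KD cells, so the Nxf2-KD members did not stand out. The median was 1951 bp on 3L and 1758 bp on 2L in Nxf2-KD cells, and 1824 and 1358 bp in Panx-KD cells. Wide peaks scored higher, with a Spearman correlation of width and score across members of 0.82 in Nxf2-KD and 0.85 in Panx-KD cells, a description of peaks that share libraries.

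Over whole lists the median width was 1696 bp in Nxf2-KD and 1540 bp in Panx-KD cells, so the lower median of the Panx-KD members went with the same order in all peaks. The Panx-KD members without an Nxf2-KD counterpart were narrow, with a median of 984 bp against 2028 bp for those with one. In Nxf2-KD cells the medians were 1088 and 1942 bp. A wide peak is more readily met at 1 bp by construction, and width went with score. These medians are therefore not a result separate from the overlap by score.

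**Figure D3:**
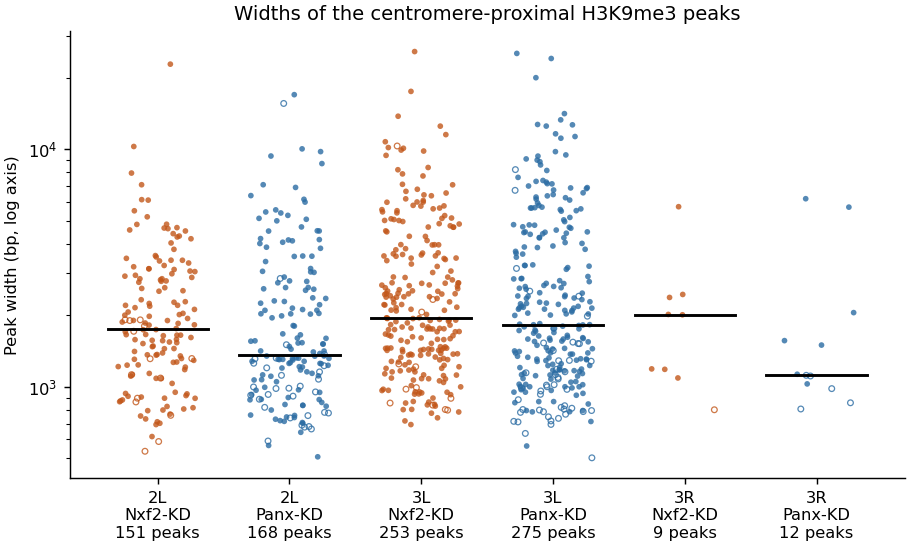
Width of every centromere-proximal peak (y axis, bp, log axis) by arm and knockdown, with filled points for peaks overlapped in the other list, open points for those that were not, and a black line at the median. Open points lie mostly below the medians, with 1 Nxf2-KD and 3 Panx-KD exceptions of more than 5 kb.

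Where a member of each list met only each other among the members, widths were alike, while edges matched closely in a minority of pairs. Peaks outside the limits were left out of this pairing. Among the members, 239 such pairs were found. Their median widths were 1818 bp in Nxf2-KD and 1801 bp in Panx-KD cells, and the Panx-KD peak was the wider in 122 of 239 (51.0%), against 54.9% of all such pairs in the lists. Starts differed by a median of 91.0 bp and ends by 101 bp, with start differences of up to 6382 bp. Both edges lay within 100 bp of each other in 69 pairs (28.9%), below the 34.3% of all pairs and the 42.6% on the rest of the 3 arms, and near the 28.0% on the heterochromatin sequences. Across the pairs the widths had a Spearman correlation of 0.874 and a Pearson correlation of 0.915 on the log10 scale.

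Scores in these pairs were mostly higher in the Panx-KD list. The Panx-KD score exceeded the Nxf2-KD score in 187 of 239 pairs (78.2%), with a median ratio of 1.46. The whole lists gave 74.9% and a median ratio of 1.36, so the share at the arm ends was near the background. Median scores of the pairs were 148 in Nxf2-KD and 199 in Panx-KD cells, and the scores had a Spearman correlation of 0.848. Whether the scores of the lists share a scale is not known, and these ratios are no measure of a change in the mark.

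The ratio ranged widely among the pairs. At the top stood a block of nearly the same width in both lists, 3L:23034404-23044327 in Nxf2-KD cells, with a score of 258.74 against 1340.36 (ratio 5.18). At the other end was 2L:22924339-22925901, with 174.73 in Nxf2-KD and 52.98 in Panx-KD cells (ratio 0.303).

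**Figure D4:**
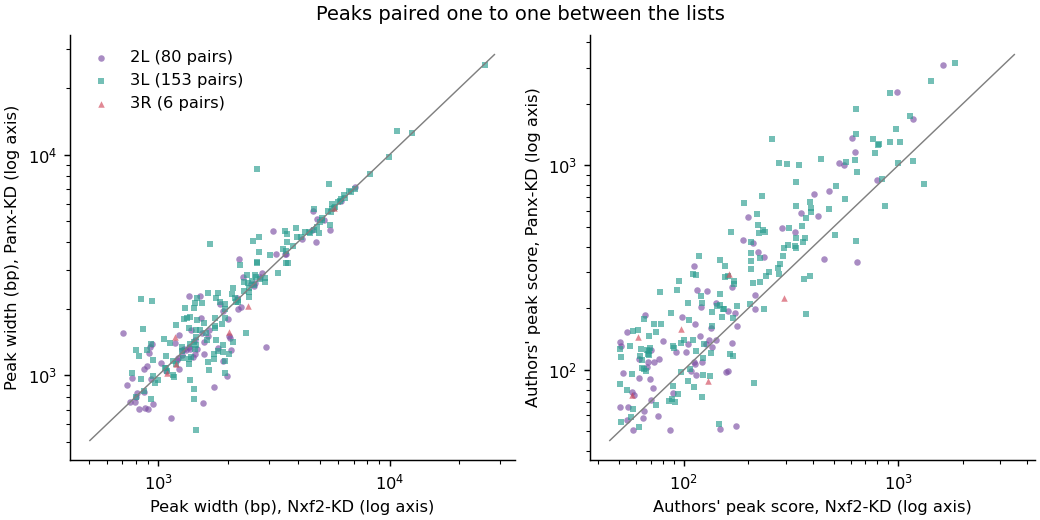
Width (left, bp) and authors' score (right) of the 239 centromere-proximal pairs of peaks that meet only each other among the members. The Nxf2-KD value is on the x axis and the Panx-KD value on the y axis, all axes log, with a line of equal values. Widths scatter about the line, with 122 of 239 above it, whereas 187 of 239 scores lie above it.

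Other members were split in one list and whole in the other. Of the Nxf2-KD members 45 touched more than 1 Panx-KD member, and of the Panx-KD members 58 touched more than 1 Nxf2-KD member. These were 10.9% and 12.7% of the members, near the 12.0% and 10.7% of all peaks of those lists. The 22.8 kb Nxf2-KD block 2L:22370820-22393642, with a score of 1268.91, was covered to 99.1% by 4 Panx-KD peaks, the widest of 16979 bp with a score of 3100.00. The Nxf2-KD peak with the highest score, 3176.53, was 2L:22756710-22766981, which met 2 Panx-KD peaks, the higher of them with 2444.96.

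The widest members of the lists were the same block. It was listed as 3L:23281519-23307305 in Nxf2-KD cells, 25787 bp with a score of 635.29, and as 3L:23281921-23307248 in Panx-KD cells, 25328 bp with a score of 1886.22. A further block on the same arm, 3L:23443012-23460536 in Nxf2-KD cells (17525 bp, score 1928.24), lay wholly within the 20016 bp Panx-KD peak 3L:23441858-23461873 (score 1493.50), so the order of the scores was the reverse there.

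The highest Panx-KD scores fell on blocks that also scored high in Nxf2-KD cells. The first 4 were 3L:24411476-24418478 (3166.71, against 1832.65 in Nxf2-KD cells), 2L:22659337-22666427 (3100.00 against 1624.46), 2L:22379935-22396913 (3100.00 against 1268.91) and 3L:24306018-24317331 (2994.76 against 2014.19). The peaks with 3100.00 were tied, and that exact value was also the highest score on 2R in both lists. Why the value recurs was not examined, so it may not be a graded score. Width and score parted in a few blocks. The Nxf2-KD peak 3L:23589965-23603740, 13776 bp wide, had a score of only 87.42, and the 2 Panx-KD peaks over 99.6% of it reached 335.76.

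A small number of long stretches were covered in 1 list only. Most such stretches were short edges, with a median of 102 bp for Nxf2-KD and 168 bp for Panx-KD cells. At least 5 kb long were 1 stretch in Nxf2-KD cells and 5 in Panx-KD cells, and those 5 came to 59.7 kb, 23.7% of all the bases covered in Panx-KD cells alone. Such stretches were counted at the arm ends only. Over the whole lists 384 of 3497 Nxf2-KD and 936 of 4023 Panx-KD peaks had no overlap. Whether the counts of long stretches go with this difference between the lists was not tested.

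The longest was 3L:23340318-23363104, 22.8 kb. It belonged to the 24.1 kb Panx-KD peak 3L:23340318-23364428, of which the Nxf2-KD list covered 5.49%. That peak had a score of 105.95, low for its width. The nearest Nxf2-KD peak before it ended 8042 bp away, and the next one began where the stretch ended.

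The second, 2L:22787384-22802975, was a whole Panx-KD peak of 15.6 kb with a score of 545.91, the highest among the 84 Panx-KD members without a counterpart. It was adjoined by 2L:22802990-22804358 (score 243.54), also without a counterpart. The gaps to the nearest Nxf2-KD peaks were 4574 and 12110 bp, while the nearest Nxf2-KD peak before it, 2L:22779990-22782809, had the Panx-KD counterpart 2L:22779992-22782888.

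Of the other 3, 2 adjoined each other. The Panx-KD peak 3L:24161004-24169213 (8210 bp, score 495.60) had no counterpart. The next Panx-KD peak, 3L:24169219-24177810 (8592 bp, score 1009.18), met the Nxf2-KD peak 3L:24175601-24178283. Its first 6382 bp, 3L:24169219-24175600, were not covered in Nxf2-KD cells. The third was the Panx-KD peak 3L:24443226-24449940 (6715 bp, score 264.31).

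In the other direction, the Nxf2-KD peak 3L:23650187-23660508 (10322 bp, score 448.50) had no counterpart. The nearest Panx-KD peaks ended 122 bp before it and began 23124 bp after it. Its neighbour 3L:23644196-23648323 was listed in both, with 635.36 in Nxf2-KD and 428.65 in Panx-KD cells. The next Nxf2-KD members without a counterpart by score were far smaller, 3L:23728879-23731208 (157.95), 3L:23126852-23128914 (117.86) and 2L:22581731-22583442 (109.30).

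The bins that hold these stretches had some of the lowest agreement of the inner zones. Long stretches covered in 1 list only lower the index of their bin by construction, so this is not a separate result. The Jaccard index was 0.574 in 3L:23300001-23400000, 0.618 in 3L:23600001-23700000, 0.663 in 3L:24100001-24200000 and 0.713 in 3L:24400001-24500000. On 2L, where the 15.6 kb peak spans a bin edge, it was 0.682 in 2L:22700001-22800000 and 0.627 in 2L:22800001-22900000. By contrast it was 0.860 in the most densely covered bin, 3L:23400001-23500000. Whether the long stretches recur in single replicates could not be seen from merged lists.

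**Figure D5:**
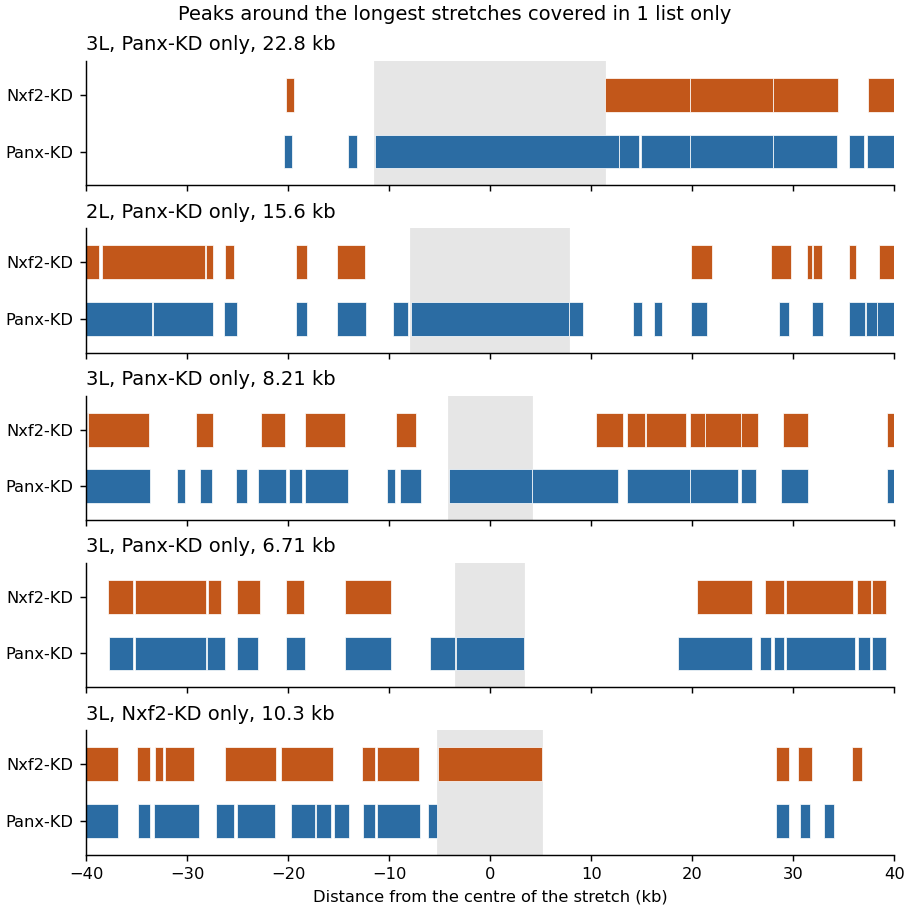
Peaks of both lists (bars; Nxf2-KD above, Panx-KD below) within 40 kb of the centre of the 4 longest stretches covered in Panx-KD cells only and the longest in Nxf2-KD cells only, with each stretch shaded and the x axis in kb from its centre. Most neighbouring peaks appear in both rows with like outlines, while the shaded stretches of 22.8, 15.6, 8.21, 6.71 and 10.3 kb are filled in 1 row.

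The few peaks on 3R could be followed one by one. The largest of the Nxf2-KD list, 3R:31737-37466 (5730 bp, score 294.27), was matched by 3R:31788-37493 in Panx-KD cells (5706 bp, score 225.78). The Nxf2-KD peaks 3R:84306-86682 (206.92) and 3R:86703-88711 (229.07) lay under the single Panx-KD peak 3R:84324-90514 (6191 bp, score 361.10), the largest of that list. The peaks nearest the centromere, 3R:18-2464 and 3R:5-2056, had scores of 161.73 and 294.58. Without a counterpart were 1 of 9 Nxf2-KD peaks, 3R:17782-18581 (54.38), and 5 of 12 Panx-KD peaks, with scores of 56.73 to 104.73. The unmatched peaks on 3R were thus all narrow and low, with none wider than 1117 bp. The overlapped shares on 3R were 88.9% in Nxf2-KD and 58.3% in Panx-KD cells, against 89.0% and 76.7% of all peaks. With 9 and 12 peaks, the 3R shares rest on very few regions.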

How the data were processed

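H3K9me3 chromatin was immunoprecipitated from Nxf2-KD and Panx-KD cells (2 samples each, with 1 input each). Per the submitters' processing notes the tools were cutadapt, Bowtie 1.0 and MACS 1.4.2 on build dm3. The deposited lists give a score per peak, and whether the authors put the scores of both lists on a common scale is not given in the sources used here. The file names call the lists merged, and how replicates were merged is not given in the sources used here.

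Peak starts were converted to positions counted from 1. Overlaps, bases in common, 100 kb bins and stretches were computed in Python 3.11.15 (pandas 2.3.3, scipy 1.17.1), tested on simulated intervals and checked against bedtools 2.31.1. Peaks overlapped at 1 bp or more. Named regions were, per list, drawn from the 5 widest, the 5 highest in score, the same among unmatched peaks, those nearest the limits, and the 5 longest peak-free or single-list stretches; 3R peaks, pairs at the extremes of the score ratio and neighbours were chosen after their values were seen. The regions and comparisons were chosen with earlier results of these data known. Alternatives were other overlaps, a score of at least 100, limits moved by 250 kb and joining peaks within 1 kb. Sequences and gene positions were not used here.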

Additional observations from a re-analysis of the deposited data

How the results depend on the processing

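Member counts and covered bases stayed within 1.5 times of the main values with scores of at least 100 and with moved limits. The overlapped share lay between 91.3% and 94.7% of Nxf2-KD and between 78.0% and 84.2% of Panx-KD members under the alternatives other than the next ones named. Asking for 50% reciprocal overlap lowered the overlapped share to 72.4% of Nxf2-KD and 65.7% of Panx-KD members, and extending the other list by 1 kb raised it to 97.6% and 89.5%. Joining peaks within 1 kb left 228 Nxf2-KD and 247 Panx-KD members with median widths of 3434 and 3062 bp. With scores of at least 100 the median widths were 2575 and 2314 bp. The shares of covered bases found in the other list, from the Nxf2-KD and the Panx-KD side, were 90.3% and 76.3% with scores of at least 100, 91.3% and 81.0% with limits 250 kb nearer the centromere, and 90.9% and 80.2% with limits 250 kb further out. In each alternative the share was higher from the Nxf2-KD side. Joining and score limits change which peaks are counted by construction. No paired analysis was possible because each knockdown has 1 merged list. Sequencing depth is not in the lists, so a peak missing from 1 list was not shown to lack the mark there.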

Other observations

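Close outside the limit on 3R lay a densely marked bin, 3R:800001-900000, covered to 49.5% in Nxf2-KD and 47.1% in Panx-KD cells with a Jaccard index of 0.911. It was more fully covered than any bin inside the limit on that arm, and the bins on either side of it were covered to 4.16% and 0% in Nxf2-KD cells.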
